A study of Bos taurus with 8 samples.

Results

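The genes described here encode spliceosome proteins and SR factors, and they were chosen by gene symbol, with earlier results of these data known. A probe belonged when its annotated symbol, brought to the current name, was one of the SF3A, SF3B, SNRP, SNRNP, PRPF, SRSF, U2AF or LSM2 to LSM8 names, or was SF1, SYF2, CDC5L, TRA2A, TRA2B, CRNKL1, BCAS2, PLRG1 or SYNCRIP. These names took in 110 of the 43794 probes on the array and 66 of the 15212 genes named on it. The hnRNP genes with HNRNP symbols and the DEAD-box helicases were left out. LSM8, PRPF38B and SRSF12 carry names of the same kind and were not analysed here.

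The spliceosome removes introns from pre-mRNA. It is built anew on each intron from small nuclear ribonucleoproteins (snRNPs), which pair a short RNA with a ring of Sm or LSM proteins and a few specific proteins: U1 binds the 5′ splice site, U2 the branch site, and the U4/U6.U5 tri-snRNP then joins and is rearranged into the active enzyme with the PRP19 complex. SR proteins bind exons and recruit these parts, and a minor spliceosome with U11 and U12 removes a small class of introns. An early cleavage embryo carries mRNA that the oocyte stored, while the embryo's own genome is still mostly silent.

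Bovine 2-cell embryos taken at 29.5 hours after in vitro fertilization (hpf), the fast group, were compared with 2-cell embryos taken at 46 hpf, the slow group, to ask how the mRNA of early and late cleaving embryos differs. Both groups came from oocytes of slaughterhouse Holstein cows that were matured, fertilized with mixed frozen semen and cultured in vitro, and how many embryos were pooled per sample is not stated in the labels. Amplified RNA of both groups shared each of 8 two-colour oligonucleotide arrays, numbered as 4 biological replicates with the dyes exchanged between the 2 arrays of a number. Collection time and speed of cleavage changed together, so they cannot be told apart, nor can fewer cells of a type and less RNA per cell in such bulk samples. All ratios are log2 of 29.5 hpf over 46 hpf after loess within each array, so a positive ratio means more signal at 29.5 hpf. Nothing says that the replicates were separate pools beyond the word biological, and p-values measure the spread between the 4 labelled numbers. Median raw signal ran from 152.1 to 343.8 in Cy5 and from 128.5 to 195.7 in Cy3, and the number of arrays limits the precision. All 13 measured oocyte and early embryo marker genes were above background on all 8 arrays in both groups, as were 7 of 15 cumulus and granulosa markers and 2 of 9 sperm markers. Among these markers 2 were past the threshold, NLRP2 higher at 29.5 hpf and the cumulus gene SERPINE2 lower, with limma adjusted p-values of 0.124 and 0.0640 under the exchanged numbers described next. The 11 tested cumulus and granulosa markers ran from SERPINE2 at -1.28 to STAR at 0.67, with a median of -0.04, and the part of such cells in the results below was not tested.

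The array numbers 1 and 2 went against the arrays themselves. Over the 66 genes by their brightest probe, the 2 arrays numbered 1 correlated at 0.27 and the 2 numbered 2 at 0.34, whereas crossed pairs were closer: number 1 with 29.5 hpf in Cy5 and number 2 with 46 hpf in Cy5 gave 0.86, and number 2 with 29.5 hpf in Cy5 and number 1 with 46 hpf in Cy5 gave 0.67. The pairs numbered 3 and 4 correlated at 0.81 and 0.80. These are descriptions over genes of the same arrays, which share probes and signal level. Where all arrays have a value the mean is the same under either pairing, but its error is not. The labelled numbers were kept for the results, and each call below is given also with numbers 1 and 2 exchanged among the arrays with 46 hpf in Cy5.

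Few spliceosome genes passed the threshold, and those that did ran in opposite directions. PRPF8, the large scaffold protein at the heart of the U5 snRNP, and SF3B3, a scaffold of the branch-site complex SF3b, rose at 29.5 hpf by fitted folds of 2.06 and 1.77. SNRNP40, another U5 protein, and SYF2, a partner of the PRP19 complex, fell to 0.576 and 0.482 of the 46 hpf level. SF3B1, the SF3b protein that clamps the branch site, rose on 1 of its 3 probes. By the brightest probe, 2 genes rose and 2 fell out of 66, or 6.06%, against 1.47% of all 12638 tested genes (0.894% higher and 0.578% lower). By probe, 3 rose and 2 fell out of 103 tested, or 4.85%, against 1.15% of all 33032 tested probes (0.624% higher and 0.530% lower). Bright probes were more common among the members. Of the 103 probes, 87 were above background on all 8 arrays in both groups, against 18519 of all 33032. With only such probes tested, 5 member probes rose and 6 fell, against 457 and 396 of the 18519. The part of signal level in these shares, here and below, was not tested. With numbers 1 and 2 exchanged none of the 103 passed at an adjusted p of 0.05, while 29 had an unadjusted p under 0.05 and 4 probes of the whole array, 0.0121%, passed (limma with Benjamini-Hochberg adjustment over all tested probes, as for every adjusted p below). Leaving out any 1 of the 4 labelled replicates left no probe of the whole array past the threshold, so this loss was not particular to the members. Limma adjusted p-values were then 0.0708 to 0.200 for the 5 member probes. Their signs could not change there, because each probe had 1 sign on every array with a value.

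All 66 genes had a tested probe, and 7 further probes, of SNRPE, SNRPN, SRSF2, SRSF6, SNRPA and SNRPC, were too dim to test. The median ratio over the 66 genes was -0.06, against -0.005 over all tested genes, with 30 genes above 0 and 36 below. The interquartile range of the 66 genes was -0.225 to 0.128, wider than the -0.119 to 0.096 of all tested genes. The median SD over the 4 replicates was 0.261 for these genes, against 0.200 over all genes. With exchanged numbers it was larger, at 0.346 against 0.2365. With the labelled numbers the typical 95% confidence interval of a member reached 0.279 on either side. A typical ratio within that distance could not be told from 0 with these arrays. An unadjusted p under 0.05 was reached by 21 of 66 genes (7 higher and 14 lower), against 19.3% of all genes, and with exchanged numbers by 18, against 14.4%. By probe it was reached by 33 of 103, against 16.4% of all tested probes, and by 29 with exchanged numbers, against 12.4%. Ratios kept 1 sign on all 8 arrays in 12 of the 66 genes, 4 above 0 and 8 below, or 18.2%, against 7.94% of all genes. Among those below 0, PRPF31 passed the signal filter only through 46 hpf, being above background on 3 of 8 arrays at 29.5 hpf. By probe, 1 sign was kept in 17 of 103, with 6 above 0 and 11 below, or 16.5%, against 7.01% of all probes (3.36% above and 3.65% below).

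**Figure D1:**
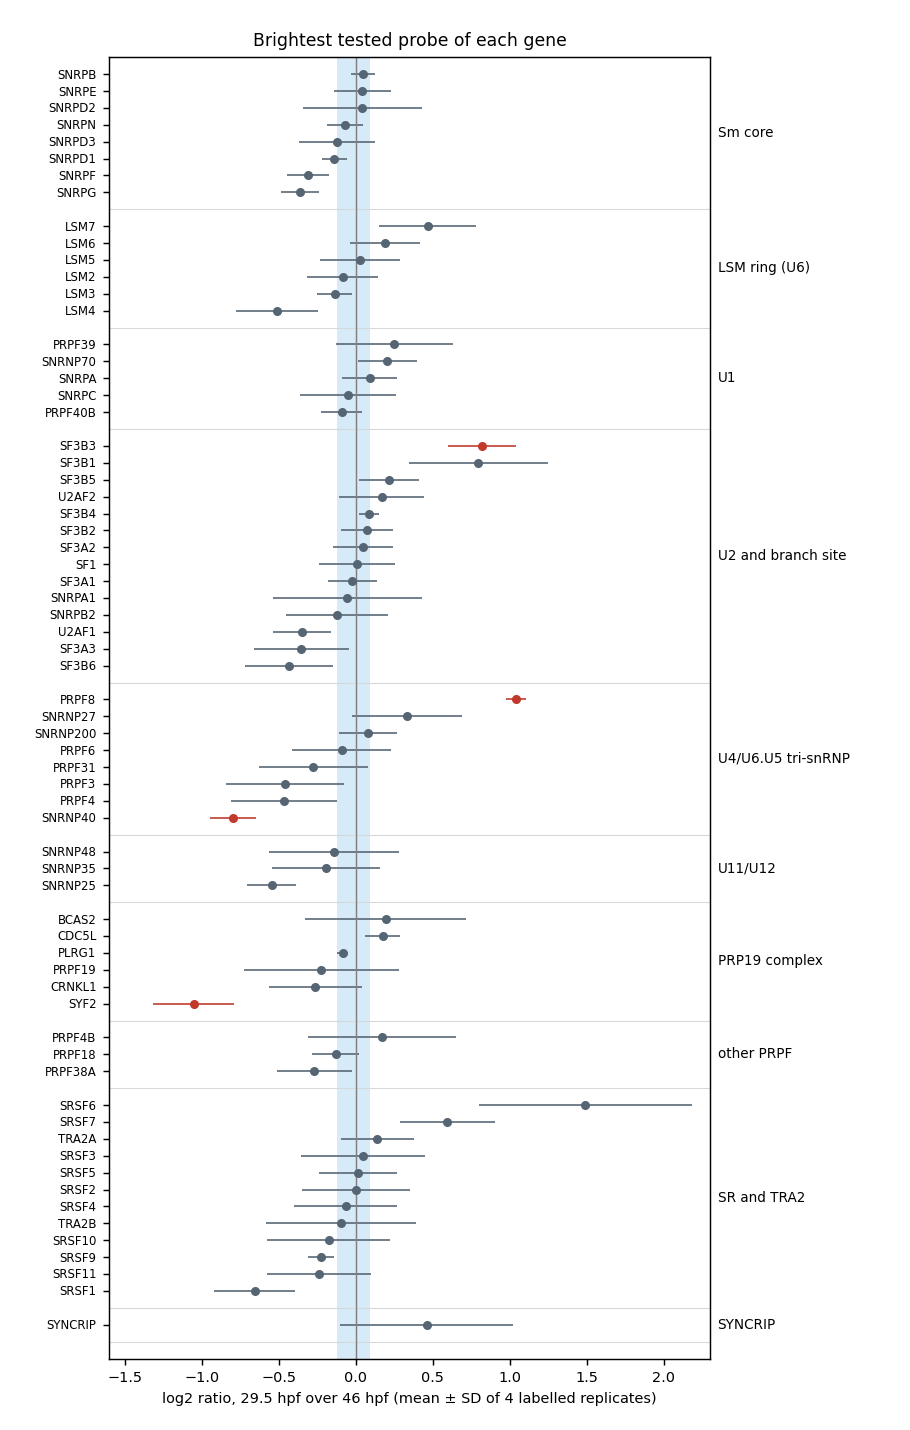
Mean log2 ratio of 29.5 hpf over 46 hpf for each of the 66 genes by its brightest probe, grouped by snRNP class, with bars for the SD over 4 labelled replicates. The blue band spans the interquartile range of all tested genes (-0.119 to 0.096), and the 4 genes in red, PRPF8 and SF3B3 above 0 and SNRNP40 and SYF2 below 0, were past the threshold.

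The Sm proteins form the ring on U1, U2, U4 and U5 RNA. None of their 8 genes passed the threshold, and their median was -0.10. SNRPG, a small ring subunit, was below 0 on every array: -0.43, -0.33, -0.27 and -0.47 on the arrays with 29.5 hpf in Cy5 numbered 1 to 4, and -0.65, -0.36, -0.35 and -0.03 on those with 46 hpf in Cy5. Its mean of -0.36 ± 0.126 (SD, n = 4) had an adjusted p of 0.0896 by limma, or 0.154 with exchanged numbers, and its other probe averaged -0.13. SNRPF, another small subunit, read -0.53, 0.08, -0.44 and -0.31 on the arrays with 29.5 hpf in Cy5 and 0.01, -0.40, -0.24 and -0.65 on the others. It was low on most arrays and near 0 on 2, with a mean of -0.31 ± 0.134 (SD, n = 4) and a limma adjusted p of 0.126. The other subunits lay closer to 0, with SNRPD1 at -0.14, SNRPD3 at -0.12, SNRPD2 and SNRPE at 0.04 and SNRPB at 0.05. SNRPN, the close paralogue of SNRPB known from an imprinted locus, stood at -0.07. Probe sequences were not used here, so signal shared between SNRPB and SNRPN was not tested. SNRPB was above background on 6 of 8 arrays at 29.5 hpf and 7 of 8 at 46 hpf.

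The LSM2 to LSM8 ring sits on U6 RNA. Of its 6 measured genes none passed, and 3 were above 0 and 3 below. LSM4 was low on all 8 arrays, at -0.45, -0.58, -0.38 and -1.07 with 29.5 hpf in Cy5 and at -0.61, -0.30, -0.04 and -0.63 with 46 hpf in Cy5. Its mean was -0.51 ± 0.266 (SD, n = 4), at a limma adjusted p of 0.107. LSM7 went the other way, at 0.80, -0.56, 0.23 and 0.67 with 29.5 hpf in Cy5 and at 0.50, 0.58, 0.86 and 0.67 with 46 hpf in Cy5. Only 1 array was below 0, and the mean was 0.47 ± 0.312 (SD, n = 4; limma adjusted p 0.160), with 0.37 on its other probe. LSM2, LSM3, LSM5 and LSM6 averaged -0.08, -0.14, 0.03 and 0.19. Members of this single ring thus had ratios of either sign.

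The U1 snRNP, which finds the 5′ splice site, had no mean ratio beyond 0.25, and none of its 5 genes had an unadjusted p under 0.05. SNRNP70, which binds U1 RNA and receives contacts from SR proteins, read 0.05, 0.08, -0.09 and 0.25 with 29.5 hpf in Cy5 and 0.57, 0.12, 0.07 and 0.57 with 46 hpf in Cy5. Its mean was 0.20 ± 0.191 (SD, n = 4; limma adjusted p 0.352). PRPF39, the homologue of a yeast U1 protein, read 0.26, -0.06, 0.20 and 0.85 with 29.5 hpf in Cy5 and -0.33, -0.02, 0.48 and 0.65 with 46 hpf in Cy5. Both arrays numbered 4 were high, and the mean was 0.25 ± 0.377 (SD, n = 4; limma adjusted p 0.505). SNRPA averaged 0.09, SNRPC, which shapes 5′ splice site recognition, -0.05, and PRPF40B -0.09.

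The U2 snRNP and the factors that mark the branch site and the 3′ splice site made up 14 genes. SF3B3 rose and no gene of this class fell. Their median was 0.03 with loess but -0.26 when arrays were only centred on their median, a scaling under which the median of all genes was -0.10. The SF3b complex, which grips the branch-site adenosine with U2 RNA, held the largest ratios of the class.

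SF3B3 read 1.04, 0.33, 1.46 and 0.55 on the arrays with 29.5 hpf in Cy5 numbered 1 to 4, and 0.72, 0.82, 0.73 and 0.92 on those with 46 hpf in Cy5. Every array was above 0, and the array numbered 2 with 29.5 hpf in Cy5 was the lowest. Its normalised log2 signal was 11.21 to 12.12 at 29.5 hpf and 10.58 to 11.28 at 46 hpf, ranges that overlapped slightly. The mean ratio was 0.82 ± 0.222 (SD, n = 4; 95% confidence interval 0.57 to 1.07), with a limma adjusted p of 0.0409, or 0.102 with exchanged numbers. By the number that opens the array's title, it averaged 0.69 for 140, 1.00 for 141 and 0.82 for 142. All arrays titled 141 had 29.5 hpf in Cy5, and all titled 142 had 46 hpf in Cy5. Averages by title number, here and below, thus also carry the dye orientation.

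SF3B1 had 3 probes, and every measured value of all 3 was above 0. Its probe past the threshold read 1.02, 2.26 and 1.86 on the arrays with 29.5 hpf in Cy5 numbered 1 to 3, had no value on the array numbered 4 because the spot was left out, and read 0.93, 0.36, 0.99 and 0.74 with 46 hpf in Cy5. The dye orientations thus gave different sizes for this probe, averaging 1.71 with 29.5 hpf in Cy5 and 0.76 with 46 hpf in Cy5. Its signal was 11.11 to 12.95 at 29.5 hpf and 10.35 to 11.10 at 46 hpf, which just failed to overlap. The mean ratio was 1.11 ± 0.312 (SD, n = 4, with replicate 4 resting on 1 array), with an interval of 0.79 to 1.43 and a limma adjusted p of 0.0395, or 0.133 with exchanged numbers. Averages by title number were 1.40 for 140, 1.86 for 141, where only the array numbered 3 had a value, and 0.70 for 142.

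The brightest SF3B1 probe did not pass. It read 0.05, 0.85, 1.37 and 0.66 with 29.5 hpf in Cy5 and 0.58, 0.34, 1.36 and 1.15 with 46 hpf in Cy5, and its mean was 0.80 ± 0.452 (SD, n = 4; limma adjusted p 0.106). The remaining probe read 0.66, 0.36, 1.80 and 0.83 with 29.5 hpf in Cy5 and 0.95, 0.42, 1.40 and 1.13 with 46 hpf in Cy5, with a mean of 0.94 ± 0.504 (SD, n = 4; limma adjusted p 0.0929). On both of these probes the arrays numbered 3 were the highest.

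The other SF3b subunits did not share these ratios. SF3B6, the small protein that contacts the branch adenosine, averaged -0.43 and was below 0 on 7 arrays, and SF3B2, SF3B4 and SF3B5 averaged 0.07, 0.09 and 0.22. Of the SF3a complex, which ties SF3b to the U2 core, SF3A3 averaged -0.35 and was below 0 on 7 arrays, while SF3A1 and SF3A2 stood at -0.02 and 0.05. The U2 RNA-binding pair SNRPA1 and SNRPB2 averaged -0.05 and -0.12. U2AF1, which reads the AG at the end of the intron, averaged -0.35 with 7 arrays below 0 (limma adjusted p 0.139). Its partner U2AF2, which binds the pyrimidine tract, gave 0.17 on its brightest probe and -0.39 on the other, so its sign depended on the probe. SF1, the first protein on the branch site, averaged 0.01.

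**Figure D2:**
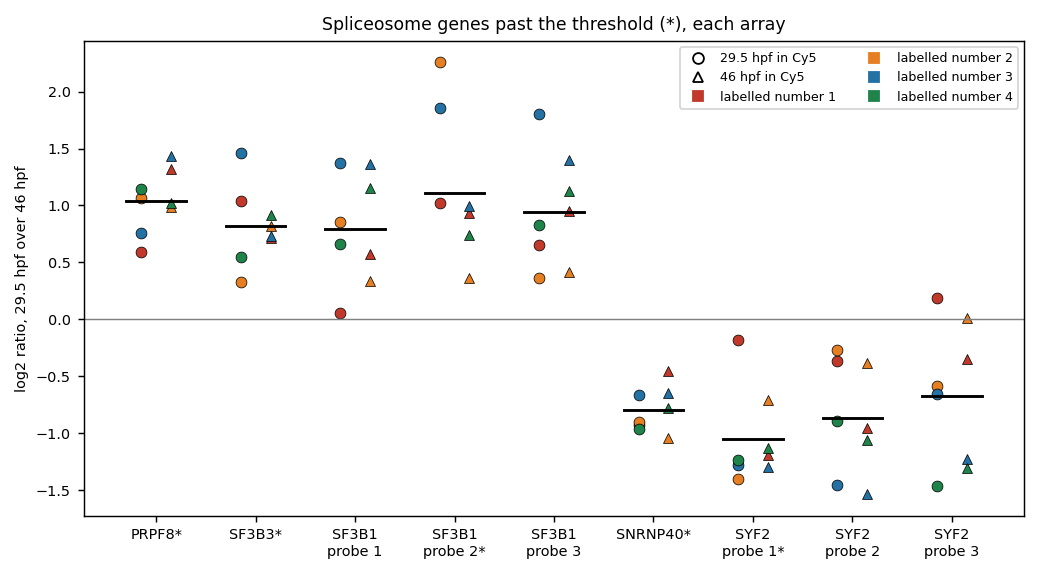
Log2 ratio of 29.5 hpf over 46 hpf on each array for the genes with a probe past the threshold (starred) and for the other probes of SF3B1 and SYF2. Circles are arrays with 29.5 hpf in Cy5, triangles arrays with 46 hpf in Cy5, colours the labelled numbers and bars the means; each starred probe has every array on 1 side of 0, and the second SF3B1 probe has a gap between circles (mean 1.71) and triangles (mean 0.76).

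The U4/U6.U5 tri-snRNP brings the catalytic parts to the intron. Of its 8 genes, 1 rose and 1 fell, and these 2 belong to the same particle, U5. Another 2, PRPF3 and PRPF4, were below 0 with an unadjusted p under 0.05.

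PRPF8 cradles the splice sites and the catalytic RNA. It read 0.59, 1.06, 0.75 and 1.14 on the arrays with 29.5 hpf in Cy5 numbered 1 to 4, and 1.32, 0.99, 1.44 and 1.03 on those with 46 hpf in Cy5. Every array was high, and the lowest was the array numbered 1 with 29.5 hpf in Cy5. Its signal was 10.88 to 11.74 at 29.5 hpf and 9.78 to 10.71 at 46 hpf, without overlap. The mean ratio was 1.04 ± 0.064 (SD, n = 4; interval 0.89 to 1.19) with a limma adjusted p of 0.0227. With exchanged numbers the SD was 0.173 and the adjusted p 0.0811. By title number it averaged 0.99 for 140, 0.95 for 141 and 1.15 for 142, so the size was close in each.

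SNRNP40, a WD-repeat protein that sits beside PRPF8 in U5, ran the other way. It read -0.93, -0.90, -0.66 and -0.96 with 29.5 hpf in Cy5 and -0.45, -1.04, -0.64 and -0.78 with 46 hpf in Cy5. All 8 arrays were low, with the array numbered 1 with 46 hpf in Cy5 nearest to 0. Signal was 11.22 to 11.68 at 29.5 hpf and 12.09 to 12.52 at 46 hpf, without overlap. The mean ratio was -0.80 ± 0.151 (SD, n = 4; interval -0.99 to -0.60), with a limma adjusted p of 0.0335, or 0.0811 with exchanged numbers. Its averages by title number were -0.76 for 140, -0.81 for 141 and -0.82 for 142.

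Among the other tri-snRNP genes, SNRNP200, the helicase that unwinds U4 from U6, averaged 0.08, and PRPF6, which bridges U5 and U4/U6, -0.09. The U4/U6 proteins PRPF3 and PRPF4 averaged -0.46 and -0.47, with 7 and 6 arrays below 0 and limma adjusted p-values of 0.226 and 0.187. PRPF31, which holds U4 and is mutated in a form of retinitis pigmentosa in people, averaged -0.27 and was below 0 on all 8 arrays, yet it was above background on only 3 of 8 arrays at 29.5 hpf and 7 of 8 at 46 hpf. SNRNP27 averaged 0.33, with its arrays spread from -0.08 to 1.05.

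**Figure D3:**
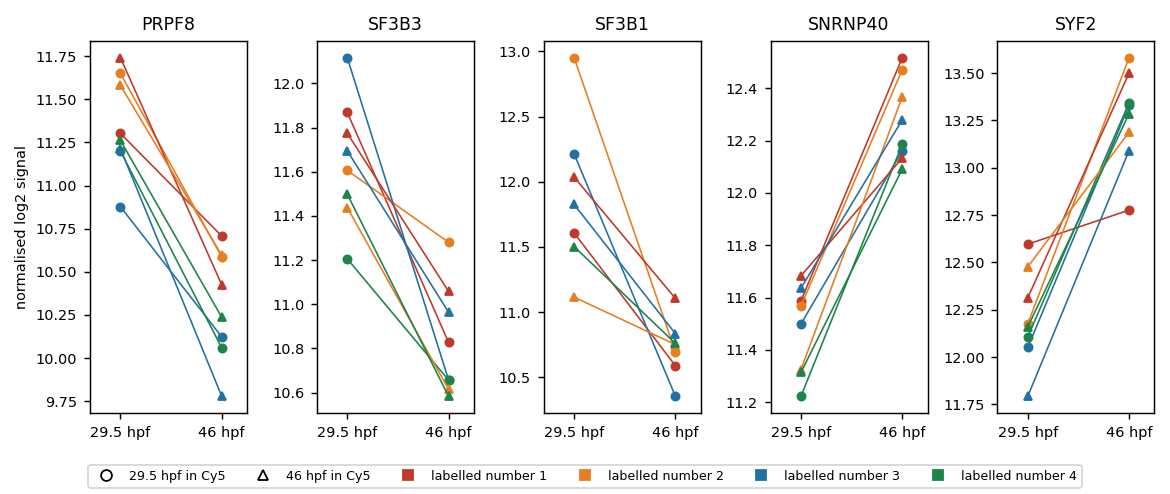
Normalised log2 signal of the 5 probes past the threshold, with 29.5 hpf at left and 46 hpf at right in each panel and a line joining the 2 channels of an array. PRPF8, SF3B3 and SF3B1 slope down from 29.5 hpf to 46 hpf on every array with a value, SNRNP40 and SYF2 slope up, and the axes differ between panels.

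The minor spliceosome was represented by 3 proteins of the U11 snRNP, all with means below 0 and none past the threshold. SNRNP25 read -0.63, -1.08, -0.57 and -0.78 with 29.5 hpf in Cy5 and -0.17, -0.21, -0.27 and -0.66 with 46 hpf in Cy5. It was low on all 8 arrays and lower where 29.5 hpf carried Cy5. The mean was -0.55 ± 0.161 (SD, n = 4; interval -0.75 to -0.34), with a limma adjusted p of 0.0551, or 0.115 with exchanged numbers. SNRNP35, the U11 counterpart of SNRNP70, read 0.42, -0.35, -0.58 and -0.26 with 29.5 hpf in Cy5 and -0.23, 0.54, -0.64 and -0.45 with 46 hpf in Cy5. Its arrays numbered 3 and 4 were low and the rest mixed, with a mean of -0.19 ± 0.351 (SD, n = 4; limma adjusted p 0.593) and -0.14 on its other probe. SNRNP48, which takes part in reading the minor 5′ splice site, averaged -0.14.

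The PRP19 complex stabilises the catalytic RNA when the tri-snRNP is activated. Of its 6 genes SYF2 fell and none rose. SYF2 read -0.18, -1.41, -1.28 and -1.24 on the arrays with 29.5 hpf in Cy5 numbered 1 to 4, and -1.19, -0.71, -1.30 and -1.13 on those with 46 hpf in Cy5. Every array was low, but the array numbered 1 with 29.5 hpf in Cy5 was far nearer to 0 than the others. Signal was 11.79 to 12.60 at 29.5 hpf and 12.78 to 13.58 at 46 hpf, without overlap. The mean ratio was -1.05 ± 0.263 (SD, n = 4; interval -1.33 to -0.77), with a limma adjusted p of 0.0354, or 0.125 with exchanged numbers. By title number it averaged -0.92 for 140, -1.26 for 141 and -1.04 for 142.

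The other 2 SYF2 probes also had means below 0 and did not pass, and the mean over all 3 probes, -0.86, had a limma adjusted p of 0.0673. The next brightest read -0.37, -0.27, -1.46 and -0.89 with 29.5 hpf in Cy5 and -0.96, -0.38, -1.53 and -1.06 with 46 hpf in Cy5, a mean of -0.86 ± 0.497 (SD, n = 4; limma adjusted p 0.107). The remaining probe averaged -0.67 ± 0.599 (SD, n = 4; limma adjusted p 0.236), with 2 arrays, both numbered 1 or 2, above 0. CDC5L, a Myb-related core subunit, read -0.10, 0.07, 0.30 and 0.09 with 29.5 hpf in Cy5 and 0.55, -0.04, 0.25 and 0.29 with 46 hpf in Cy5. Its mean was 0.18 ± 0.113 (SD, n = 4; limma adjusted p 0.301). The ubiquitin ligase PRPF19 averaged -0.22, its partners PLRG1 and BCAS2 -0.08 and 0.20, and CRNKL1, a scaffold of repeated helices, -0.26. BCAS2 split by number, with arrays numbered 1 and 2 between 0.50 and 0.81 and arrays numbered 3 and 4 between -0.36 and -0.10.

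A further 3 PRPF genes act around activation and the second step of splicing. PRPF38A, which joins before activation, read -0.41, -0.67, -0.49 and -0.61 with 29.5 hpf in Cy5 and 0.59, -0.27, -0.20 and -0.08 with 46 hpf in Cy5. Its mean was -0.27 ± 0.245 (SD, n = 4; limma adjusted p 0.303), and the low values lay mostly in 1 dye orientation. Dimmer probes of PRPF38A averaged -0.072 and 0.045, so its sign depended on the probe. PRPF18, needed for exon ligation, read 0.29, 0.19, 0.04 and 0.10 with 29.5 hpf in Cy5 and -0.58, -0.01, -0.50 and -0.56 with 46 hpf in Cy5 on its brightest probe, so its sign followed the dye (mean -0.13 ± 0.152; SD, n = 4; limma adjusted p 0.519). Its other probes averaged -0.77 and -0.44, and the first of these was below 0 on all 8 arrays (limma adjusted p 0.0859). The kinase PRPF4B, which phosphorylates tri-snRNP proteins, averaged 0.17.

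SR proteins and the related TRA2 proteins bind exonic enhancers and decide many splice choices. None of these 12 genes passed the threshold, and 6 lay above 0 and 6 below. SRSF6 had the largest ratio of all 66 genes: its brightest probe read 1.86, 1.57, 1.38 and 0.75 with 29.5 hpf in Cy5 and 1.65, 1.29, 3.04 and 0.39 with 46 hpf in Cy5. Every array was above 0, over a wide span, and the mean was 1.49 ± 0.692 (SD, n = 4; interval 0.84 to 2.14) with a limma adjusted p of 0.0712, or 0.139 with exchanged numbers. The other SRSF6 probes averaged 0.39, above 0 on all 8 arrays, and -0.42, with 6 of 8 arrays below 0.

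SRSF1, the founding SR protein, was low on every array of its brightest probe, at -0.63, -1.21, -0.25 and -0.42 with 29.5 hpf in Cy5 and -1.14, -0.51, -0.82 and -0.27 with 46 hpf in Cy5. The mean was -0.66 ± 0.263 (SD, n = 4; limma adjusted p 0.0690, or 0.188 with exchanged numbers). Its next probe averaged -0.44, also below 0 on all 8 arrays (limma adjusted p 0.0723), and the third -0.17. SRSF7, which like SRSF3 links splicing to mRNA export, averaged 0.59 with 7 arrays above 0 (limma adjusted p 0.0999) and 0.22 on its other probe. SRSF9 averaged -0.23 and was below 0 on all 8 arrays (limma adjusted p 0.171).

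The remaining SR genes did not stand apart from 0. SRSF2, SRSF3, SRSF4 and SRSF5 averaged 0.002, 0.05, -0.07 and 0.01, SRSF10, a splicing repressor in its dephosphorylated form, -0.17, and SRSF11 -0.24. SRSF10 had 6 tested probes, the most of any member, with means from -0.51 to -0.05. TRA2A averaged 0.14 and TRA2B -0.09, and both arrays numbered 4 were the lowest for TRA2B.

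SYNCRIP, an hnRNP Q protein that binds mRNA in the cytoplasm as well as in the nucleus, belongs to no snRNP. Its brightest probe read -0.24, 0.58, 1.40 and 0.23 with 29.5 hpf in Cy5 and 0.44, -0.16, 1.20 and 0.25 with 46 hpf in Cy5, and the arrays numbered 3 were far above the rest. The mean was 0.46 ± 0.561 (SD, n = 4; limma adjusted p 0.380). Its other probe averaged -0.66, with 7 of 8 arrays below 0 (limma adjusted p 0.0809), so the 2 probes had opposite signs.

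**Figure D4:**
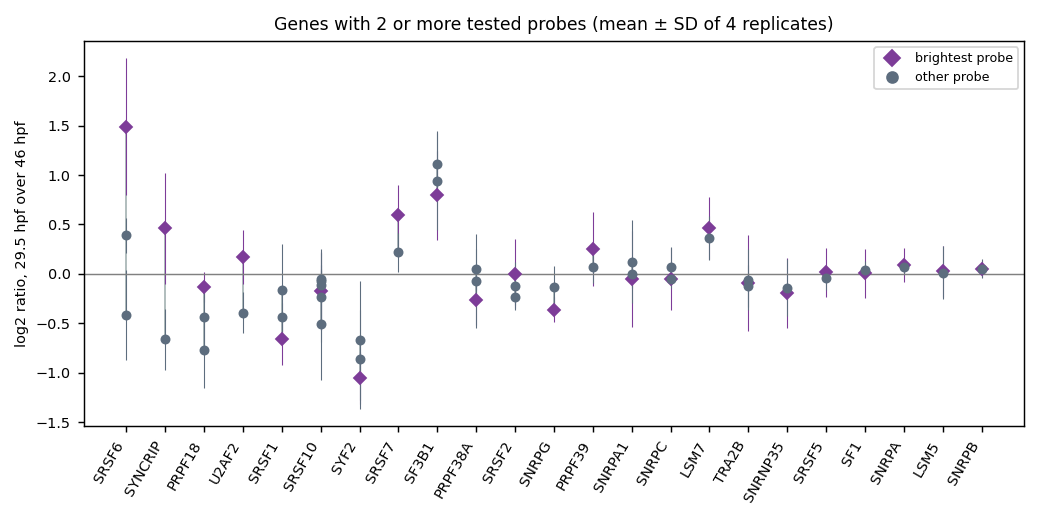
Mean log2 ratio of 29.5 hpf over 46 hpf for every tested probe of the 23 genes with 2 or more, with a diamond for the brightest. SF3B1 lies above 0 and SYF2 and PRPF18 below 0 on all 3 probes, and SRSF6 spans from -0.42 to 1.49 and SYNCRIP from -0.66 to 0.46.

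Probes of a gene can lie in different transcript ends or isoforms, and here they gave a check on each ratio. Of 23 genes with 2 or more tested probes, 15 had 1 sign on all of them, or 65.2%, against 1554 of 3066 genes of the whole array, or 50.7%. PRPF18, SRSF6, SYNCRIP and U2AF2 had probes more than 0.5 apart. The other 43 genes, PRPF8, SF3B3 and SNRNP40 among them, rested on 1 tested probe.

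Class medians differed between replicates. The median of the U11/U12 class was 0.10 and 0.09 in replicates 1 and 2, but -0.43 and -0.55 in replicates 3 and 4. By array, it was 0.13 and -0.35 on the arrays numbered 1 and 2 with the fast group in Cy5. It was -0.17 and 0.32 on those numbered 1 and 2 with the slow group in Cy5. Within replicates 1 and 2 the arrays thus had medians of opposite sign. On the arrays numbered 3 and 4 the median ran from -0.66 to -0.31. In the LSM ring it was -0.15, -0.12, 0.20 and -0.02 over replicates 1 to 4, and by array it ranged from -0.63 to 0.31. U1 had 0.35 in replicate 4 and between -0.04 and -0.01 in the others. Replicate medians over all genes stayed between -0.01 and 0.01.

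**Figure D5:**
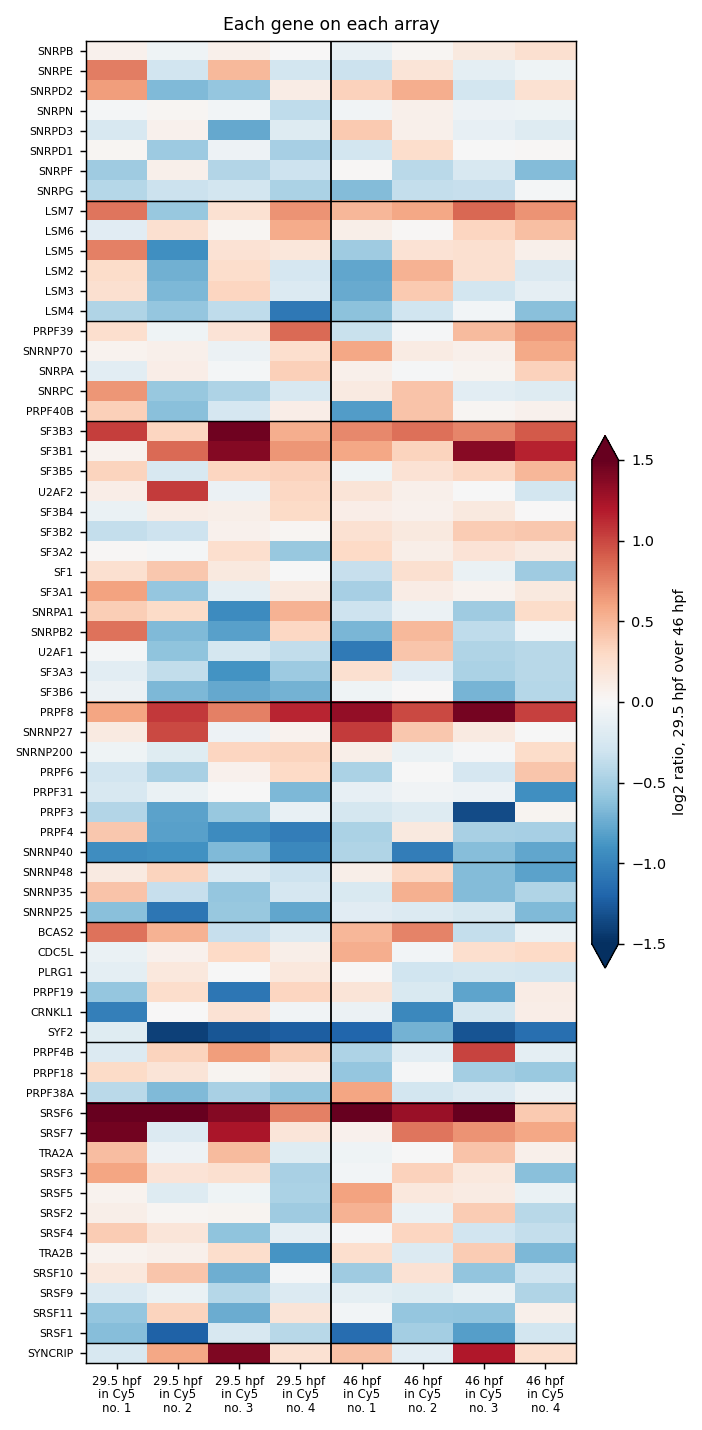
Log2 ratio of 29.5 hpf over 46 hpf for the 66 genes (down) on the 8 arrays (across), in red above 0 and in blue below, with the colour scale ending at 1.5 in either direction. PRPF8, SF3B3, SF3B1 and SRSF6 are red and SNRNP40, SYF2, SNRNP25 and SRSF1 blue on all 8 arrays, and the 2 arrays numbered 1 look less alike (correlation 0.27) than the 2 numbered 3 (0.81).

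Other genes of the splicing pathway seldom passed the threshold. Of 77 such genes in 5 lists (snRNP assembly, SR protein kinases and SR-related proteins, B and C complex proteins, the minor spliceosome, and the exon junction complex), 66 were tested, none rose and 1 fell, with a median of -0.04. The 1 call compares with 1.47% of all genes, and 14 of the 66 had an unadjusted p under 0.05, where 19.3% of all genes did. RBM17, which acts at the 3′ splice site with SF3B1, was the gene that fell, at -0.61 ± 0.141 (SD, n = 4) and below 0 on all 8 arrays (limma adjusted p 0.0422, or 0.142 with exchanged numbers). Its other probes averaged 0.45 and 0.19, so its sign depended on the probe.

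Among the B and C complex proteins and the SR-related proteins, SMNDC1, an SMN-related splicing factor, averaged -0.49, RBM39 -0.48 and the SR kinase SRPK1 0.33 (limma adjusted p 0.107, 0.139 and 0.223). Other probes of SRPK1 averaged -0.55 and -0.18 and those of RBM39 ran from -0.32 to 0.08, so the sign of both depended on the probe. The exon junction genes MAGOHB and RNPS1 averaged -0.46 and -0.26 (limma adjusted p 0.0507 and 0.134). Of the minor spliceosome, ARMC7 averaged -0.95 and was below 0 on all 8 arrays (limma adjusted p 0.0543), and ZCRB1 averaged -0.16 on its brightest probe and 0.13 on the other. The assembly genes GEMIN4 and SMN2 (so named in the annotation) averaged 0.23 and 0.12.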

How the data were processed

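Two-colour scanner files held linear intensity per spot, not normalized, as deposited: mean signal and median local background at 532 nm (Cy3) and 635 nm (Cy5), per the file headers. The authors' value table holds log2 ratios, with no statement of their normalization. Regressed on the scanner log2 ratios, its columns had slopes of 1.01 to 1.06 where 29.5 hpf was in Cy5 and of -1.08 to -1.04 where 46 hpf was, so they already ran as 29.5 hpf over 46 hpf, with medians of -0.0151 to 0.0120. It served as an alternative only.

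Spot background was removed with limma's normexp (offset 50), and each array was normalized by loess (limma 3.58.1, R 4.3.3). Control spots and spots dropped by the image software (28 to 186 per array) had weight 0. Ratios of arrays with 46 hpf in Cy5 were turned in sign, and the arrays of a number averaged. Probes entered the test when signal exceeded the mean plus 2 SD of 153 negative control spots on at least 4 of 8 arrays in the channels of 1 group, and at least 3 replicates had a value. The 4 replicate values were tested against 0 by limma (lmFit, eBayes; two-sided), and p-values were adjusted after Benjamini and Hochberg over 33032 probes. The brightest tested probe stands for a gene. Symbols came from the platform annotation (21781 probes with 1 symbol), updated through RefSeq: 20059 were current, 1524 were synonyms and 198 were kept. The highest raw signal of a member spot was 34419. The code was tested on simulated data.

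Per-array values are given for genes with a probe past the threshold and for the 2 genes of smallest p in each class, and other probes where a gene passed on 1 probe or its probes differed by over 0.5. Of the other splicing genes, those past the threshold and up to 2 of smallest p per list are named. Values of other members are given as means or ranges. Members, classes and lists were chosen with earlier results of these data known.

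Deviations from the mean of all arrays, over tested probes, correlated at -0.28 and -0.19 within numbers 1 and 2 and at 0.29 and 0.50 within 3 and 4, so the labelled numbers do not pair all arrays. Alternatives covered background, normalization, filter, the authors' values, numbering, blocks, dye orientation, variance model, left-out replicates and the probe that stands for a gene.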

Additional observations from a re-analysis of the deposited data

Results flagged for a closer look

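In each of the 103 tested probes the highest and the lowest of the 4 labelled replicates were set against the rest by Dixon's ratio of the gap to the range. The ratio passed its 95% value for 4 values in 6 probes, where chance gives about 1 in 20. All 6 outlying values were of replicate 3 or 4. Some labelled numbers average arrays that did not pair, which can hide an extreme in those replicates. The check was not made with exchanged numbers, so whether the 6 would stay flagged was not tested. SYNCRIP, by its brightest probe, had replicate 3 at 1.30 and the others at 0.10 to 0.24 (ratio 0.885). SRSF3 had replicate 4 at -0.56 and the others at 0.20 to 0.27 (0.911), and a dim TRA2B probe had replicate 4 at -0.52 and the others at 0.07 to 0.13 (0.910). PLRG1 had replicate 3 at -0.14 and the others at -0.07 to -0.06 (0.930), a small distance on the log2 scale. The other SNRPG probe had replicate 3 at -0.45 and the others at -0.06 to 0.01 (0.839). The next brightest SRSF1 probe had replicate 3 at -0.22 and the others at -0.53 to -0.49 (0.876).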

How the results depend on the processing

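Counts below are of member probes higher and lower, then of member genes higher and lower; they were 3 and 2, and 2 and 2, as reported. They stayed so with no background correction, normexp offset 10 and no filter, and with Aquantile, which leaves the ratios as they were by construction. With no filter, 151 of all 43794 probes were higher and 146 lower. All 4 counts were 0 with median centring, the authors' values, exchanged numbers, either dye orientation alone, a trended robust variance, the arrays numbered 1 and 2 left out (chosen after seeing the data), and in the range without each replicate in turn (0 to 0). The labelled number as a replicate block on 8 arrays gave 6 and 9, and 4 and 6. The exchanged number as a block, also chosen after seeing the data, gave 6 and 6, and 4 and 3. The title number as a block gave 10 and 17, and 6 and 10, and the strict filter 5 and 6, and 3 and 4. The consensus correlation within a block was 0.209 for the labelled number, 0.484 for the exchanged number and -0.142 for the title number. The mean of a gene's probes gave 3 and 2 genes, against 99 and 83 of all 12638. There SYF2 no longer passed (limma adjusted p 0.0673), and SF3B1 and SNRNP25 did (0.0459 and 0.0475). Over all probes, 206 were higher and 175 lower, against 344 and 271 with no background correction, 457 and 396 with the strict filter, 35 and 12 with the authors' values, 4 and 0 with exchanged numbers, 568 and 560 with the replicate block, 1618 and 1796 with the title number, 383 and 360 with the exchanged block, 150 and 115 with offset 10, and 0 and 0 with median centring, a single dye orientation, the trended variance, any replicate left out or the arrays numbered 1 and 2 left out, where 3564 to 6517 had an unadjusted p under 0.05.

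PRPF8, SF3B3, SNRNP40, SYF2 and the SF3B1 probe each passed in 8 of 19 alternatives (Aquantile among them) and kept their sign in all 19. Each had 1 sign on every array with a value, so leaving out or regrouping arrays could not change it. With the replicate block the adjusted p-values were 0.00268 for PRPF8, 0.00297 for SNRNP40, 0.0120 for SYF2, 0.0127 for SF3B1 and 0.0157 for SF3B3 (limma). With the exchanged block they were 0.00431, 0.00639, 0.0124, 0.0107 and 0.0347 in the same order. With the authors' values they were 0.0515, 0.0963, 0.0839, 0.0798 and 0.112. The highest adjusted p over these alternatives was 0.313 to 0.315. No call was lost under the replicate block, but this block joins arrays numbered 1 and 2 that did not pair. More probes of the whole array passed with it, 568 higher and 560 lower, against 206 and 175 as reported. SNRNP25, SRSF6 and the brightest SF3B1 probe also passed with it (0.0160, 0.0242 and 0.0400) and with the exchanged block (0.0403, 0.0479 and 0.0494), as did the other SF3B1 probe (0.0211 and 0.0370) and 1 dimmer probe each of SYF2 (0.0248 and 0.0355), PRPF18 (0.0282 and 0.0458) and SYNCRIP (0.0446 and 0.0458). SNRPG, LSM4 and SRSF1 passed with the replicate block (0.0476, 0.0368 and 0.0446) and not with the exchanged one (0.116, 0.0527 and 0.0540). Median centring moved class medians to -0.35 (Sm), -0.31 (LSM), -0.26 (U2), -0.33 (tri-snRNP), -0.42 (PRP19 complex), -0.43 (other PRPF), -0.35 (SR and TRA2) and -0.49 (U11/U12), against -0.10 for all genes, while U1 stood at 0.03. SYNCRIP averaged -0.10 over both probes. The cause of these changes was not tested. The number of arrays and a dim signal limit small ratios: PRPF31, SNRPB and SNRPA were not above background on every array.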
